A study of Mus musculus with 16 samples.

Results

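The genes described here are the nuclear genes that encode the mitochondrial respiratory chain, its mobile carrier cytochrome c and the ATP synthase, measured in white (WAT) and brown (BAT) adipose tissue of mice. Members were taken by symbol: every gene whose symbol begins with Nduf, Uqcr, Atp5 or Cox4 to Cox8, with Sdha, Sdhb, Sdhc, Sdhd, Cycs and Cyc1. Cox7a1 and Cox8b, whose products belong to complex IV, are left out by this rule and are given once as comparison. The array carried 91 such genes, on 117 array sequences, among 19096 named genes, and 89 of the 91 passed a signal filter (above background on 3 or more of a group's 4 arrays, by the scanner software's flag) and were tested. These were 36 genes of complex I, 4 of complex II, 9 of complex III, 1 for cytochrome c, 15 of complex IV, 17 of complex V and 7 factors that help to assemble complex I (symbols beginning with Ndufaf). The Ndufa4 gene was counted with complex IV, where its product resides. Cox4i2 (well above background on 4 of 16 arrays) and Cox7b2 (on 2 of 16), the isoforms best known from lung and from testis, did not pass. Cox8c, another testis isoform, passed through the BAT controls alone (3 of 4 arrays, against 2 of 4 in every other group); its difference between the depots was 0.42 in controls (adjusted p = 0.651) and -0.73 in knockouts (adjusted p = 0.454).

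All 16 samples were from female mice, 4 in each of 4 groups. The 4 groups were white and brown fat of controls (CTL_WAT, CTL_BAT) and of mice whose glucocorticoid receptor was knocked out in adipose tissue only, a hormone-activated transcription factor encoded by Nr3c1 (AdipoKO_WAT, AdipoKO_BAT). The labels list no treatment. Age, strain, the white depot sampled, the deleted exons and the promoter behind the deletion are not given in the sources used here, nor is it stated whether samples of 1 number in different groups share an animal. P-values therefore measure the spread between these samples.

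Each sample was hybridised to a one-colour Agilent array, and the level of a gene is the log2 of its processed signal relative to the 75th percentile of all signals of that array. The 75th percentile itself lay between 298 and 1035 intensity units, and it was lowest in BAT knockouts 1 and 2 (298 and 320). The number of arrays limits the precision. Between the arrays of WAT knockouts 1 and 2 the spread was about that of repeated spots (1.03 times that noise, against 1.96 times or more for the other pairs of a group); the 2 were averaged to 1 sample, so that AdipoKO_WAT has n = 3. Values of single samples are given in the order of the replicate numbers, the averaged sample first among the WAT knockouts. Nr3c1 was 0.66 lower on the log2 scale in WAT knockouts (adjusted p = 0.211, limma) and 1.03 lower in BAT knockouts (adjusted p = 0.0814), with no overlap between knockouts and controls in either depot; whether the array sequence lies within the deleted part was not tested. Each slide carried 1 array of every group, always at the same position, so array position and group cannot be told apart. In bulk tissue, fewer cells of a type and less RNA per cell cannot be told apart either.

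The respiratory chain passes electrons from NADH (through complex I) and succinate (through complex II) to coenzyme Q, complex III, cytochrome c and complex IV, which reduces oxygen. Complexes I, III and IV pump protons out of the mitochondrial matrix, and complex V, the ATP synthase, lets them flow back through its ring of c subunits to make ATP. Brown fat is packed with mitochondria in which uncoupling protein 1 (Ucp1) lets the protons bypass the ATP synthase and so releases heat, and brown fat of small mammals is known for a low amount of ATP synthase for its respiratory chain. White fat stores lipid in cells with few mitochondria.

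Nearly all members were higher in brown than in white fat. In controls, 85 of 89 members (95.5%) rose past the threshold (adjusted p under 0.05, limma with Benjamini-Hochberg adjustment over 25105 genes and unnamed array sequences), where 19.1% of all features tested did so. One member, Atp5g1, was called lower in brown fat, against 14.3% of all features. The median difference of the members was 2.15 on the log2 scale (4.45-fold), against 0.11 for all features. In knockouts, which share no sample with the controls, 86 of 89 members (96.6%) were called higher in brown fat, where 16.6% of all features were. In the same comparison 0 members were called lower, where 14% of all features were. The median difference was 2.61 (6.10-fold), against -0.09 for all features. The averaged sample and knockout 3 of the WAT knockouts were rich in lymphocyte transcripts. Without them, an alternative added after the data were seen, the members' median difference in knockouts was 1.71, against -0.05 for all features. That value rests on WAT knockout 4 alone for the white side. The same 85 genes were called higher in both genotypes, where no more than 16.6% of all features can have been, the share called in knockouts. For each of these 85 every brown sample lay above every white sample of its genotype. The share of all features without such overlap between depots was not counted. Within the 4 slides, the median difference of the members between the brown and the white array was 1.84, 2.07, 2.37 and 2.28 in controls and 3.06, 3.03, 1.60 and 3.01 in knockouts; 2 of the white knockout arrays were averaged to 1 sample, so that 3 white samples stand behind the 4 knockout values.

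Markers of other cells also differed between the depots. All 8 genes of a brown adipocyte list were higher in brown fat in both genotypes, Ucp1 by 12.78 in controls. All 13 genes of a skeletal muscle list were higher too, with medians of 5.06 in controls and 6.96 in knockouts. All 5 macrophage genes were called lower in brown fat in controls and 4 in knockouts. Of 8 genes of a general adipocyte list, 1 was called higher and 1 lower in controls (median 0.74). In knockouts 5 of these were called higher and 1 lower (1.59). Of 8 B cell genes, 5 were called lower in brown fat in controls (median -3.32) and 7 in knockouts (-4.74). For 8 T cell genes these counts were 3 (-2.98) and 7 (-3.96). Of 8 intestinal epithelium genes, 5 were called lower in controls (-3.96) and 0 in knockouts (-0.41). Each list was given a level per sample, the median over its genes of each gene's level minus its mean over all samples. For muscle it ran from -3.50 to -2.64 in the WAT controls, from -4.22 to -2.75 in the WAT knockouts, from -1.07 to 3.02 in the BAT controls and from 2.49 to 5.29 in the BAT knockouts. The part of these cells in the depot differences was not tested.

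**Figure D1:**
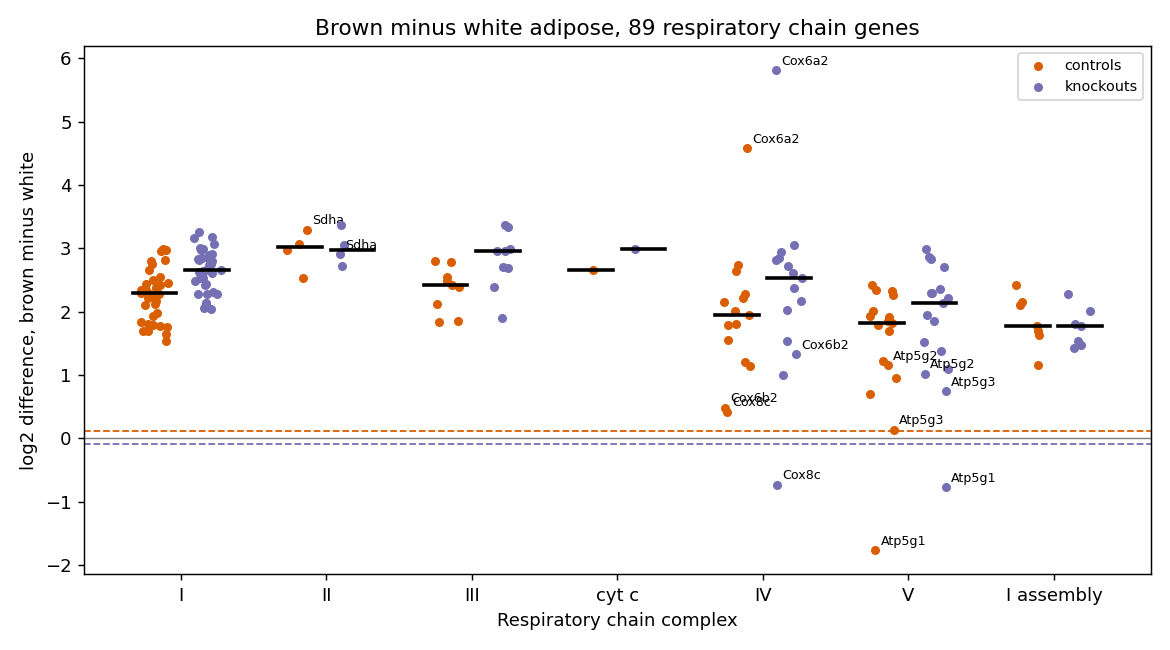
Difference between brown and white fat (log2, BAT minus WAT) of each of the 89 members by complex, in controls and in knockouts. Each point is 1 gene, black bars are the median of a complex and the dashed lines are the medians of all features in the same 2 comparisons; most points lie well above the lines, and Atp5g1 lies below them.

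Complex I, the NADH dehydrogenase, was higher in brown fat in all 36 of its tested genes in both genotypes. Its median difference was 2.29 (4.90-fold) in controls and 2.65 (6.29-fold) in knockouts, and the genes ranged from 1.54 for Ndufa13 to 2.98 for Ndufs1 in controls and from 2.05 for Ndufv3 to 3.26 for Ndufv1 in knockouts. Ndufs1, an iron-sulfur subunit of the arm that takes electrons from NADH, had levels of 4.26, 4.49, 4.25 and 4.33 in WAT controls 1 to 4 and of 7.28, 7.36, 7.38 and 7.25 in BAT controls. The brown samples lay closely together and far above the white ones (7.91-fold, SE 0.33 on the log2 scale, adjusted p = 1.45e-05). Ndufv1, which binds NADH, differed by 2.81 (7.02-fold, adjusted p = 1.75e-05). Ndufs8, another iron-sulfur subunit, had the smallest adjusted p of the complex in controls, with a difference of 2.98 (1.05e-06). Among the genes of the complex, the 7 core subunits that carry the electron path (Ndufs1, Ndufs8 and Ndufv1 among them) had a median of 2.80 in controls and the 29 accessory subunits one of 2.22. In knockouts these medians were 2.82 and 2.62. The split into core and accessory subunits was chosen after the values were seen and was not tested.

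Complex II, succinate dehydrogenase, had the largest median of the complexes in controls. Its 4 genes were all higher in brown fat, with a median of 3.02 (8.12-fold) in controls and 2.98 (7.89-fold) in knockouts. Sdha, the flavoprotein that oxidises succinate, had levels of 2.87, 3.17, 3.07 and 3.12 in WAT controls and of 6.37, 6.25, 6.44 and 6.34 in BAT controls. This is a 9.81-fold difference (3.29, SE 0.39, adjusted p = 3.11e-05), the largest of the 4. Sdhb, the iron-sulfur subunit, was 8.41-fold higher, and the membrane anchors Sdhc and Sdhd were 5.76-fold and 7.85-fold higher.

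Complex III and cytochrome c followed closely. All 9 genes of complex III were higher in brown fat in both genotypes, with medians of 2.42 in controls and 2.96 in knockouts. Cyc1, the cytochrome subunit that hands electrons to cytochrome c, had levels of 5.55, 5.39, 4.92 and 5.25 in WAT controls and of 8.15, 8.01, 8.13 and 8.01 in BAT controls (6.95-fold, adjusted p = 1.6e-05). Uqcrfs1, the Rieske iron-sulfur protein, differed by 2.42 and the core protein Uqcrc1 by 2.78 (adjusted p = 3.14e-06). Uqcrh, the hinge protein, had the smallest difference of the complex, 1.84. Cycs, cytochrome c itself, had levels of 5.77, 5.11, 4.80 and 4.95 in WAT controls and of 7.85, 7.79, 7.77 and 7.86 in BAT controls. The groups did not overlap, and the difference was 6.34-fold (2.66, SE 0.32, adjusted p = 3.09e-05).

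Complex IV, cytochrome c oxidase, has several subunits that exist as a general and a tissue-restricted isoform, and its genes differed widely from each other. Of its 15 genes, 13 were called higher in brown fat in controls and 14 in knockouts, with medians of 1.95 and 2.54. Cox4i1, the general isoform of a regulatory subunit, differed by 1.80 in controls (3.48-fold, adjusted p = 0.000292), Cox5a by 2.21 and Cox7b by 2.65 (adjusted p = 1.16e-06). The general isoforms Cox6a1, Cox7a2 and Cox8a rose by 1.14, 1.95 and 1.55. Their partners best known from heart and muscle differed far more: Cox6a2 by 4.58, Cox7a1 by 6.70 and Cox8b by 4.24 in controls, and by 5.82, 8.27 and 5.82 in knockouts. Cox7a2l, whose product links complexes III and IV, rose by 1.20 in controls, and Ndufa4 by 2.15. Of the testis isoforms, Cox6b2 rose in knockouts (1.33, adjusted p = 0.00141), while its difference in controls was 0.48 (adjusted p = 0.126); its general partner Cox6b1 differed by 2.73 and 2.94.

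Cox6a2 was the most variable member. Its levels were -3.02, -3.75, -3.26 and -3.49 in the white fat of controls and -1.49, -1.36 and -3.22 in that of knockouts. In brown fat they were 2.39, 2.66, 1.86 and -2.09 for controls against 2.28, 5.51, 4.93 and 2.46 for knockouts. BAT control 4 was far below the other BAT controls, and BAT knockouts 2 and 3 were far above the other BAT knockouts. For the skeletal muscle list, the brown controls stood at 2.44, 3.02, 2.31 and -1.07 and the brown knockouts at 2.49, 5.29, 5.11 and 2.61, with the same samples at its ends; the part of muscle in the result was not tested. Without BAT control 4 the difference of Cox6a2 between the depots in controls was 5.68. Cox7a1 and Cox8b, by contrast, lay between 8.55 and 8.67 and between 8.24 and 8.34 in the 4 BAT controls, BAT control 4 included.

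**Figure D2:**
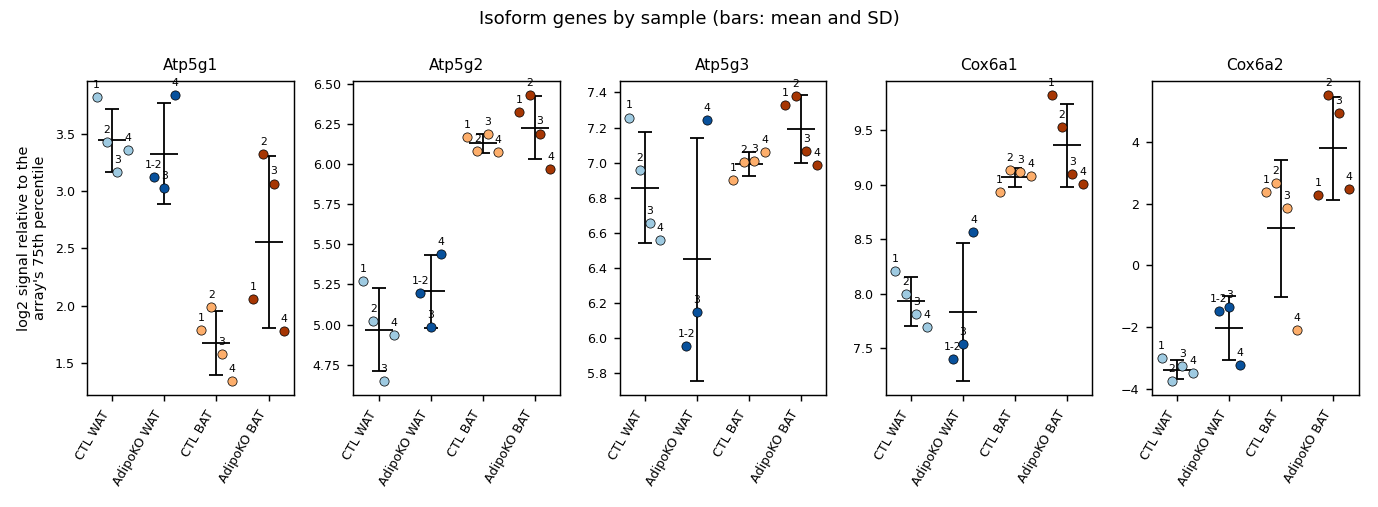
Levels (log2 relative to the 75th percentile of the array) of the c-ring genes Atp5g1, Atp5g2 and Atp5g3 and of Cox6a1 and Cox6a2 in every sample, by group, with the mean and SD as bars. Points carry the replicate number. Cox6a2 is lowest in BAT control 4 and highest in BAT knockouts 2 and 3 among the BAT samples, and Atp5g1 is lower in the BAT controls than in the WAT controls.

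Complex V, the ATP synthase, had the smallest median of the 5 complexes. Of its 17 genes, 15 were called higher in brown fat in each genotype, with medians of 1.83 (3.55-fold) in controls and 2.14 (4.41-fold) in knockouts. The catalytic head subunit genes Atp5a1 and Atp5b rose by 1.93 (adjusted p = 6.17e-06) and 0.95 (adjusted p = 0.00848); the call of Atp5b was lost under quantile normalization (0.12, adjusted p = 0.629), and its other sequences gave larger values. Atp5md, a small membrane subunit, rose most in controls (2.42, adjusted p = 3.13e-06), and Atp5k, at the interface of ATP synthase dimers, rose most in knockouts (2.99). The weakest call was that of Atp5j, a coupling subunit of the stalk (0.70, adjusted p = 0.0366), whose adjusted p was between 0.0648 and 0.092 without WAT control 3 or 4 or without any 1 of the BAT controls. Under quantile normalization, a scaling that gives every array the same distribution, Atp5j stood at -0.02 (adjusted p = 0.943), and its adjusted p was 0.0527 with no signal filter and 0.0501 with the replicate number as a block. Atpif1, the inhibitor protein of the ATP synthase and no member, was lower in brown fat, by 1.41 in controls (adjusted p = 0.000386) and by 0.80 in knockouts (adjusted p = 0.0271).

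The 3 genes of the c ring, Atp5g1, Atp5g2 and Atp5g3, encode the same mature c subunit with different import sequences, and they stood apart from each other. In controls, Atp5g2 and Cycs were called higher in brown fat, Atp5g1 lower and Atp5g3 neither way. A link between promoter letters and these differences was not tested. The promoters of the 3 genes are shown with that of Cycs. Each is the 250 bases before the annotated start on the minus strand in RefSeq's GRCm38.p6, at chr11:96075632-96075881 for Atp5g1, chr15:102671048-102671297 for Atp5g2, chr2:73911327-73911576 for Atp5g3 and chr6:50566570-50566819 for Cycs; capitals mark motif letters found by search.
Atp5g1: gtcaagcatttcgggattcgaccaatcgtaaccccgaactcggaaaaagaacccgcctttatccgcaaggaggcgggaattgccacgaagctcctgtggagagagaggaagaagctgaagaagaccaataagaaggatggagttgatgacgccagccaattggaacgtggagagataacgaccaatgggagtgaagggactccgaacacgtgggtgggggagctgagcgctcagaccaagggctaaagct
Atp5g2: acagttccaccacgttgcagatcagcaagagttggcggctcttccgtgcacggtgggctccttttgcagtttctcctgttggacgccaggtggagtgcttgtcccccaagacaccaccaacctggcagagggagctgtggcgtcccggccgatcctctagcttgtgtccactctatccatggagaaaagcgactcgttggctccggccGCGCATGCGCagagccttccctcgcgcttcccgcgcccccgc
Atp5g3: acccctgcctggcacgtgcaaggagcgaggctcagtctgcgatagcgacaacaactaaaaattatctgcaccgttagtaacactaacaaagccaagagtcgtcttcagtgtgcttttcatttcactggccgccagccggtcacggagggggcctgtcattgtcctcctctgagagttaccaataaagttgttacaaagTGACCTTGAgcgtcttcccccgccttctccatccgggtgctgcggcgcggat
Cycs: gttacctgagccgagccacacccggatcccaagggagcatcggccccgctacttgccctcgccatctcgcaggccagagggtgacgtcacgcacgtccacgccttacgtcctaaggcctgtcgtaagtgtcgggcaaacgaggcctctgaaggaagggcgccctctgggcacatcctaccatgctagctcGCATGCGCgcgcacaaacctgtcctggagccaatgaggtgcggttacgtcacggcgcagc
The searched letters, on both strands, were GCGCATGC for the core of the nuclear respiratory factor 1 (NRF1) motif, TCAAGGTCA for the motif of estrogen-related receptors (ERR), CCGGAAGT for GABP and other ETS factors and AAGATGG for the YY1 core (none of the 4 contains another; the NRF1 core can overlap its own reverse, as in Atp5g2, where the capitals cover both). In the window shown, the promoters of Atp5g2 and Cycs held the NRF1 letters, Atp5g3 held the ERR letters on the reverse strand, and Atp5g1 held none of the 4 motifs.

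Atp5g1 was the 1 member called lower in brown fat, in controls. Its levels were 3.82, 3.43, 3.16 and 3.35 in WAT controls and 1.79, 1.99, 1.58 and 1.34 in the BAT controls, a 3.40-fold lower level in brown fat with no overlap (-1.77, SE 0.33, adjusted p = 0.000933). In knockouts it was 3.12, 3.02 and 3.83 in white and 2.06, 3.32, 3.06 and 1.78 in brown fat, where the groups overlapped (-0.77, adjusted p = 0.119). BAT knockouts 2 and 3, the high ones, are those with the highest muscle list, and the part of muscle was not tested. With all samples kept, quantile normalization gave a difference of -1.10 in knockouts (adjusted p = 0.0149, limma). Without BAT knockout 2 the difference in knockouts was -1.02 (adjusted p = 0.0417), and without both, an alternative added after the data were seen, it was -1.41 (adjusted p = 0.0103).

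Atp5g2 rose in brown fat, by 1.16 in controls (adjusted p = 0.000176) and 1.02 in knockouts (adjusted p = 0.00119). Atp5g3 had levels of 7.26, 6.96, 6.66 and 6.56 in WAT controls and of 6.90, 7.0, 7.01 and 7.06 in BAT controls, which overlapped (0.14, adjusted p = 0.734). In knockouts its difference was 0.74 (adjusted p = 0.0551). Without WAT knockout 4 that value was 1.14 (adjusted p = 0.000456), and without WAT control 1 its adjusted p was 0.0486. It also passed with array-median scaling (0.89, adjusted p = 0.0306) and, with or without a block, with every array as its own sample. Without a block that gave 0.86 (adjusted p = 0.0151). With the filter set to all 4 arrays of a group it passed narrowly. In the other settings run it did not pass. Quantile normalization turned the difference of Atp5g3 in controls to -0.69 (adjusted p = 0.0117). Of the c-ring genes, Atp5g2 alone was thus called higher in brown fat in both genotypes, and under quantile normalization its difference in knockouts was 0.31 (adjusted p = 0.125).

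The promoter letters could be searched for 79 of the 91 members, in windows of 300 bases that end 50 bases after the start. The NRF1 core was present in 13 members (16.5%), in 4.12% of the promoters of tested genes and in 2.71% of all 32851 promoters. Among the 13 were Sdhb, Uqcrc1, Uqcr11, Cox6a1, Cycs, Ndufaf4 and Ndufaf5. The ERR motif was present in Atp5g3 and Sdhd (2.53%, against 0.295% of the promoters of tested genes and 0.423% of all promoters). The GABP letters were present in 5 members (6.33%, close to the 6.27% of tested genes; 3.89% of all promoters) and the YY1 core in 11 (13.9%, against 6.48% and 6.34%). The 250 bases before the start had a median GC content of 57.6% in the members, against 52.4% over all promoters. These counts describe letters in a window and were not tested.

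The 7 complex I assembly factors were all higher in brown fat in both genotypes, with medians of 1.78 and 1.77. Ndufaf4 had the smallest adjusted p of all members in controls, with levels of 1.33, 1.49, 1.35 and 1.54 in WAT and 3.85, 3.80, 3.81 and 3.91 in BAT (5.34-fold, SE 0.13 on the log2 scale, adjusted p = 6.51e-08). Its replicates were tight in every group. Ndufaf2 had the smallest difference of the 7, 1.16 in controls.

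For 20 members the array carried more than 1 kept sequence, and none of these disagreed in the sign of the depot difference in controls. The sequence with the brightest mean, which stands for the gene here, gave the smaller depot difference in 15 of the 20; the median was 2.11 by the brightest and 2.33 by the others. The value of Atp5b, 0.95, comes from the brightest of its 3 sequences, and the others reached up to 2.44. For Ndufv3 the values ran from 1.69, the one used, to 2.95. Over the 89 members, the control WAT level and the depot difference had a rank correlation of -0.29; the points share arrays and scaling, and the value is given as description.

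Other genes that build or feed the chain showed the same direction between depots. All 34 tested assembly factors outside the member rule were called higher in brown fat in controls (median 1.56) and 31 in knockouts (1.51); Cox17, a copper chaperone for complex IV, differed by 2.57 in controls. Of 78 mitochondrial ribosomal protein genes, which translate the mitochondrially encoded subunits, 76 were called higher in controls (median 1.40) and 75 in knockouts (1.39). All 15 genes of an import and channel list and all 10 of coenzyme Q synthesis rose in both genotypes, and Coq8a of the latter differed by 5.24 in controls. The members' median of 2.15 stood above the median of each of these lists. No feature of the mitochondrially encoded list could be named on the array.

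Regulators of mitochondrial gene expression were less uniform. Of 17 tested, 11 were called higher and 1 lower in brown fat in controls (median 0.99). In knockouts 8 were called higher and 3 lower (median 0.34). The coactivators Ppargc1b and Ppargc1a differed by 4.15 (adjusted p = 4.4e-09) and 3.64 in controls, and Esrra, an estrogen-related receptor, by 2.22. Ppargc1b had levels of 0.73, 0.41, 0.69 and 0.74 in WAT controls and of 4.84, 4.80, 4.76 and 4.76 in BAT controls. The gap between the depots was far wider than the spread within either. Nrip1, a corepressor of mitochondrial genes, was lower in brown fat by 1.42 (adjusted p = 0.00264), and Nrf1 had a difference of -0.42 (adjusted p = 0.151). The mitochondrial transcription factor Tfam rose by 1.25 in controls (adjusted p = 0.00247), and its difference in knockouts was 0.34 (adjusted p = 0.417).

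In white fat, no member passed the threshold between knockouts and controls, where 0.0597% of all features did. The median difference of the members was -0.31, against 0.24 for all features, and 82 of 89 members had a value below 0; these members share the same 7 samples. The medians by complex were -0.35 for complex I, -0.58 for complex II, -0.46 for complex III, -0.49 for cytochrome c, -0.26 for complex IV, -0.25 for complex V and -0.24 for the assembly factors. The smallest adjusted p was that of Ndufab1, the mitochondrial acyl carrier protein in complex I. It had levels of 4.95, 4.81, 4.40 and 4.52 in controls and of 3.30, 3.34 and 4.93 in knockouts (-0.82, SE 0.32, adjusted p = 0.253). In complex II the values ran from -0.62 for Sdhb to -0.49 for Sdhd, in complex III from -0.65 for Cyc1 to 0.11 for Uqcrh, and in complex V from -0.51 for Atp5a1 to 0.24 for Atp5g2. For Ndufab1, the sample averaged from knockouts 1 and 2 and knockout 3 lay below all controls, and knockout 4 lay among the highest controls. For none of the 89 members were knockouts and controls without overlap, where 6.47% of all features were separated upwards and 1.23% downwards. Unadjusted p-values were under 0.05 for 4 members (4.49%; Atp5a1, Ndufab1, Ndufc1 and Uqcrfs1, all lower), against 17.9% of all features.

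The members moved together across the white samples. As a list the controls stood at -0.85, -0.99, -1.28 and -1.21 and the knockouts at -1.88, -1.88 and -0.58, so that knockout 4 exceeded every control. For the adipocyte list, controls stood at 0.04, 0.12, -0.48 and -0.58, knockouts at -2.41, -1.49 and 0.78. For the B cell list these values were -0.09, -0.47, 3.78 and 3.18 against 5.17, 4.88 and -1.29, and for the T cell list -0.36, -0.76, 3.29 and 2.59 against 4.42, 4.16 and -1.22. The samples with the lowest respiratory chain levels were thus those with the lowest adipocyte and the highest lymphocyte transcripts. All 8 genes of the B cell list and all 8 of the T cell list had a positive difference between knockouts and controls, with medians of 1.21 and 1.23, and 0 of them passed the threshold. An intestinal epithelium list was high in WAT controls 1 and 4 (6.44 and 5.11, against -1.58 and 0.60 in the other controls and -1.30 to -0.17 in the knockouts). The endothelial list stood at -0.64, -0.35, -0.67 and -0.75 in controls against -1.20, -1.14 and 0.37. The part of these cells in the result was not tested.

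The count in white fat changed when knockout 4 was left out. Without it, 67 of the 89 members were called lower and 0 higher, and their median difference was -0.75, against 0.27 for all features. Of all features, 36.8% were called in either direction, and 56.7% of those called were higher in knockouts. The fit then rests on 2 knockout samples, both rich in lymphocyte transcripts. Without those 2 samples, an alternative added after the data were seen, the median difference was 0.50, against 0.23 for all features, 0 members were called, and the lone knockout was assumed to vary like the other groups. Within the 4 slides the median difference of the members between knockout and control was -0.97, -0.83, 0.68 and -0.65, with 86, 83, 1 and 83 of 89 members below 0; the slide with the positive value holds knockout 4. The second and the fourth slide carry the 2 arrays that were averaged to 1 sample, so that 3 knockout samples stand behind the 4 values.

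**Figure D3:**
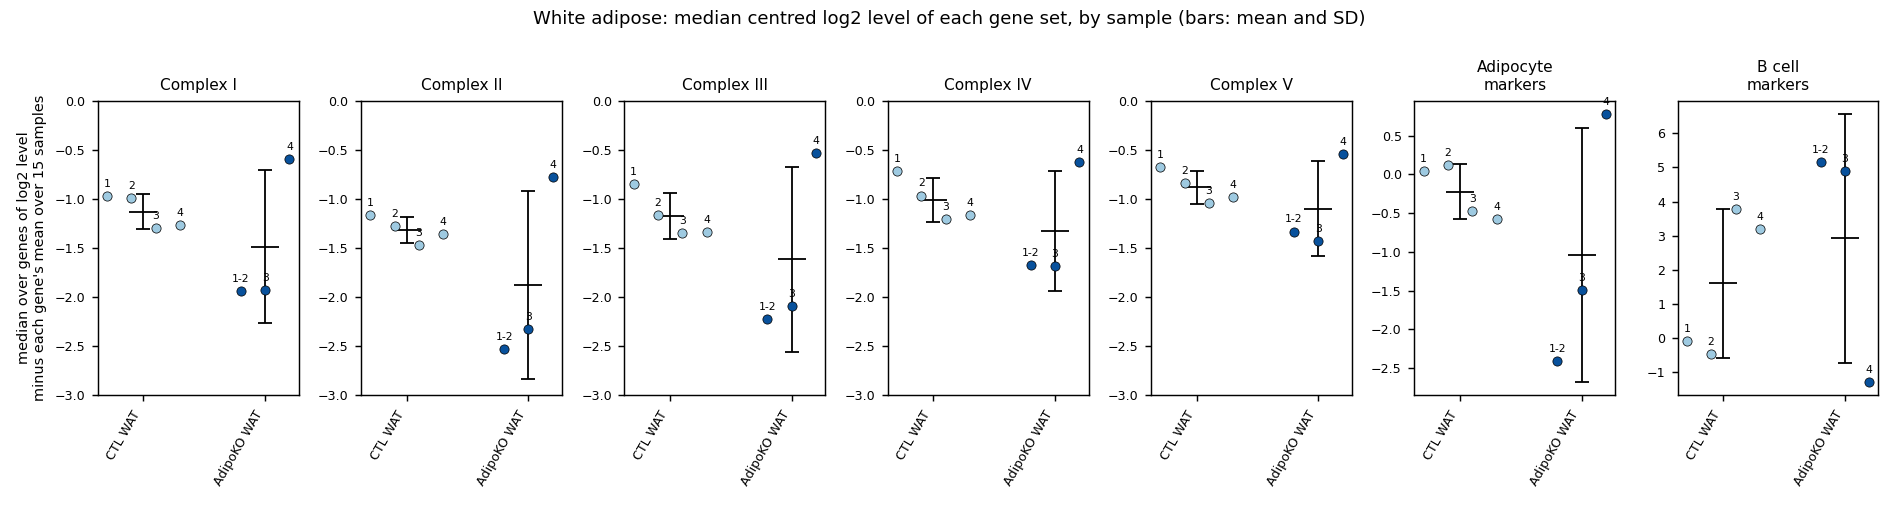
Level of complexes I to V and of adipocyte and B cell markers in white fat by sample (median over the genes of the log2 level minus the mean of each gene over the 15 samples), for controls and knockouts; points carry the replicate number and bars are the mean and SD. Knockout 4 lies above the controls and the other knockout samples below them in all 5 complexes; the B cell markers are lowest in knockout 4.

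In brown fat the median of the members lay close to that of all features with the background correction of the scanner software. No member passed the threshold, where 0.0159% of all features did, and the median difference was 0.11 against 0.10 for all features; with normexp background correction it was -0.05 against 0.34. Unadjusted p-values were under 0.05 for 7 members (7.87%), against 13.1% of all features. The knockouts lay below all controls without overlap for 15 members (16.9%, against 8.61% of all features) and above them for Cox6b2, Ndufb7 and Ndufb9 (3.37%, against 9.35%). Among the 15 lower ones were Cycs, Ndufs1, Sdha, Sdhb, Sdhc, Uqcrc2 and the assembly factors Ndufaf1, Ndufaf3 and Ndufaf4.

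By complex, the median difference in brown fat was 0.09 for complex I, -0.54 for complex II, 0.13 for complex III, -0.17 for cytochrome c, 0.22 for complex IV, 0.16 for complex V and -0.34 for the assembly factors. Sdha had levels of 6.37, 6.25, 6.44 and 6.34 in controls and of 4.56, 4.95, 6.01 and 6.14 in knockouts (-0.94, SE 0.39, adjusted p = 0.337). All 4 knockouts were below the controls, knockouts 1 and 2 by far the most. Sdhb, at 7.17, 7.16, 7.23 and 7.19 in controls and 6.08, 6.40, 6.72 and 6.99 in knockouts, showed the same order of samples (-0.64, adjusted p = 0.448). Within the 4 slides the median difference of complex II was -0.94, -0.68, -0.31 and -0.17. Sdhd changed least of the complex (-0.10), with -0.09, -0.21, -0.15 and 0.04 within the slides, and its knockouts and controls overlapped. Complex II as a list stood at 1.64, 1.56, 1.70 and 1.59 in controls and at 0.61, 0.94, 1.34 and 1.51 in knockouts. The complex I core subunits stood at 1.46, 1.38, 1.54 and 1.55 against 0.63, 0.96, 1.19 and 1.33, while the accessory subunits stood at 1.04, 0.98, 1.08 and 1.09 against 1.40, 1.30, 0.98 and 1.09. In knockouts 1 and 2 the core list was thus below the controls and the accessory list above them, but single genes of both lists did not follow. The core genes Ndufv1 (8.15 and 8.02, against 7.91 to 8.02 in controls) and Ndufs7 (7.81 and 7.57, against 7.19 to 7.36) were not lower. The accessory genes Ndufa10 (5.12 and 5.52, against 6.20 to 6.31) and Ndufb5 (3.67 and 3.80, against 4.18 to 4.36) were lower. Over all knockouts, 22 accessory genes had a positive difference and 7 a negative one.

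The same 2 arrays, BAT knockouts 1 and 2, had the lowest 75th percentile of signal of all 16, and an endothelial list had levels of 0.02, 0.16, 0.10 and 0.09 in brown controls 1 to 4 and of 1.45, 1.15, 0.47 and 0.53 in the brown knockouts. All 5 endothelial genes had a positive difference (median 0.37) and 0 passed the threshold; the part of signal or of these cells in the result was not tested. Without BAT knockouts 1 and 2, an alternative added after the data were seen, the difference was -0.28 for Sdha, -0.24 for Ndufs1 (-0.68 with them) and -0.31 for Ndufaf1 (-0.72 with them). Sequences of 1 gene also disagreed in brown fat. Of the 20 members with more than 1 kept sequence, 6 had sequences of opposite sign there (Atp5b, Atp5g2, Ndufa7, Ndufa11, Ndufa12 and Ndufv3), and the gap was widest for Atp5b: the brightest sequence of Atp5b had levels of 8.08, 8.30, 8.25 and 8.30 in controls and of 8.61, 8.35, 8.16 and 8.26 in knockouts (0.11), while another had 5.53, 5.64, 5.63 and 5.65 in controls and 3.56, 4.25, 5.09 and 5.39 in knockouts (-1.04). The direction for these 6 genes in brown fat is not settled by these arrays.

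Ndufaf4, an early-acting assembly factor of complex I, had the smallest adjusted p of the members in brown fat. Its levels were 3.85, 3.80, 3.81 and 3.91 in controls and 3.32, 3.54, 3.42 and 3.30 in knockouts (-0.45, SE 0.13, adjusted p = 0.21). In this sequence, the brightest, the 4 knockouts were all below the controls, by 0.27 to 0.61 within the slides. Without knockouts 1 and 2 its difference was -0.48. The other kept sequences of Ndufaf4, which were dimmer, had differences of -0.25 and -0.27, and in both of them knockouts and controls overlapped. In white fat the difference of Ndufaf4 was 0.20 (adjusted p = 0.41). Cox6a2 and Atp5g1 had the largest positive values in brown fat, 2.59 (adjusted p = 0.286) and 0.88 (adjusted p = 0.279). Both were highest in BAT knockouts 2 and 3, and without these samples, an alternative added after the data were seen, the values were 1.17 and 0.25.

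**Figure D4:**
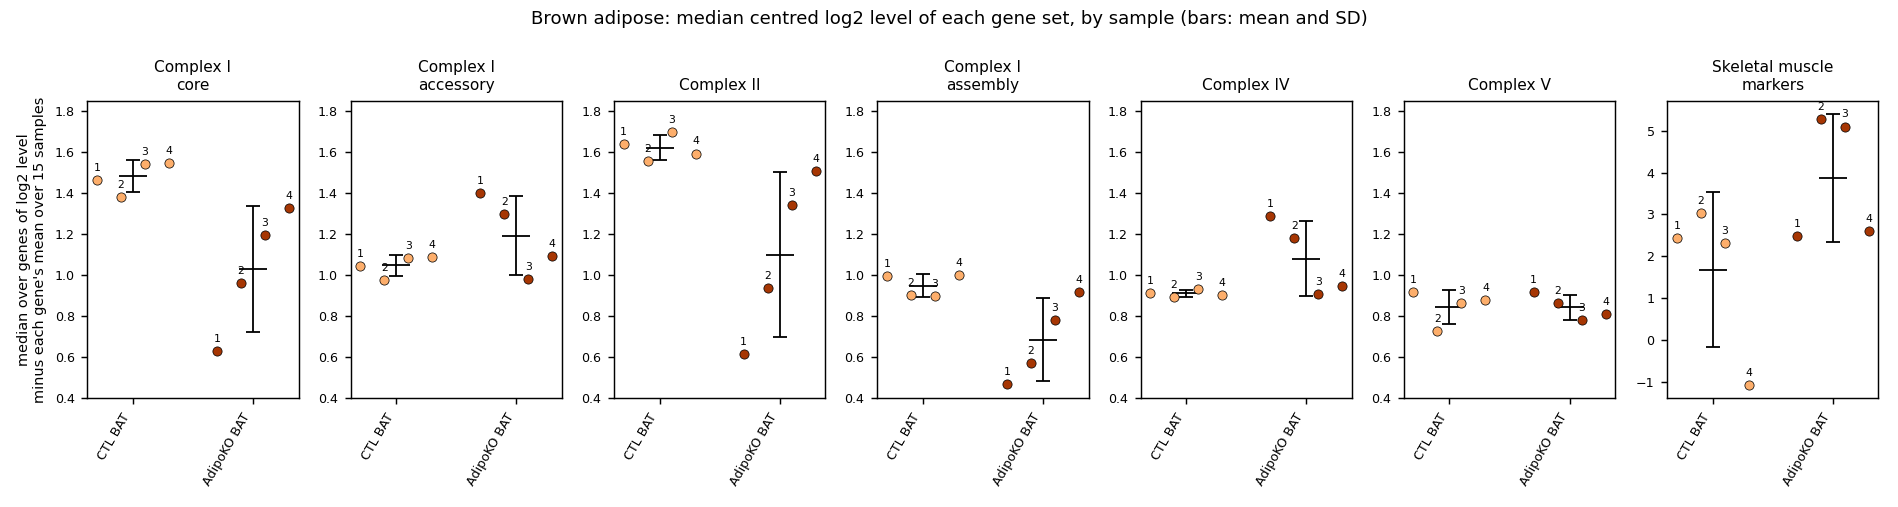
Level of the complex I core, accessory and assembly genes, of complexes II, IV and V and of skeletal muscle markers in brown fat by sample (median over the genes of the log2 level minus the mean of each gene over the 15 samples); points carry the replicate number and bars are the mean and SD. The complex II and complex I core levels of knockouts 1 and 2 lie below those of the other samples.

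The knockout differences of the 2 depots were compared as a genotype by depot interaction, which no member passed, where 0.00398% of all features did. The median interaction of the members, the BAT difference minus the WAT difference, was 0.39, against -0.14 for all features (0.23 against 0.16 with normexp background correction), and 75 of 89 members had a larger brown-white difference in knockouts than in controls. Unadjusted p-values were under 0.05 for 3 members (3.37%; Cox6b2, Ndufaf4 and Ndufc1), against 10.4% of all features. The largest positive values beyond Cox6a2 (1.23, adjusted p = 0.79) were those of Ndufc1, a small complex I subunit (1.08, adjusted p = 0.422), and of Atp5g1 (1.0, adjusted p = 0.493). Ndufaf4 had the smallest adjusted p (-0.65, adjusted p = 0.373). Without WAT knockout 4, 48 members were called, 47 of them with a positive value and Ndufaf4 with a negative one, where 16.2% of all features were called. Without the other WAT knockout samples the median interaction was -0.40. The comparisons of knockout with control and of brown with white fat share samples, and their values are given side by side only.

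**Figure D5:**
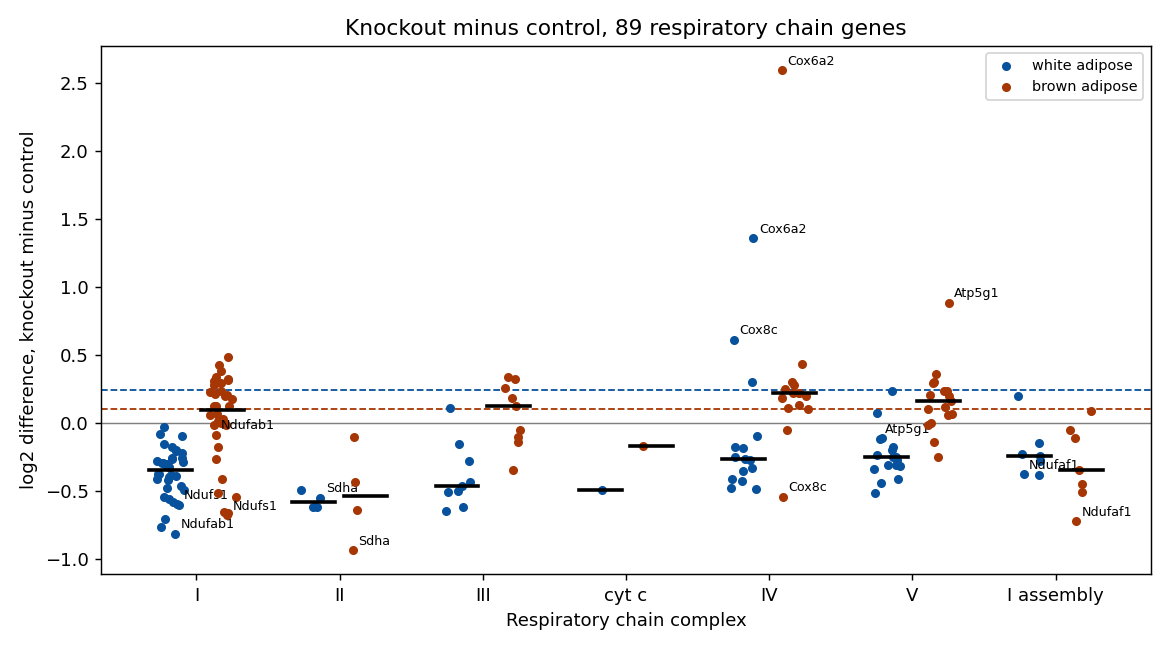
Difference between knockouts and controls (log2) of each of the 89 members by complex, in white and in brown fat. Each point is 1 gene, black bars are the median of a complex and the dashed lines are the medians of all features in the same 2 comparisons; most points lie below the line of white fat, and complex II lies below the line in both depots.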

How the data were processed

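Images of 16 one-colour arrays were extracted by the authors with Agilent Feature Extraction 12.0.0.7, per the file headers. The processed signal they deposited is an intensity from which background was subtracted within each array, without scaling across arrays. Raw median signal and background, also deposited, are intensity values, and the deposited flags are 0 or 1 per spot. Build and annotation of the array design are not given in the sources used here. Outlier spots were left out and replicate spots averaged. The log2 processed signal minus that of the array's 75th percentile was the level. A sequence was kept when marked above background on 3 or more of the 4 arrays of 1 group, and the kept sequence with the highest mean stood for a gene. Names came from RefSeq (GRCm38.p6) by transcript accession: 28223 of 41174 sequences were named, and 16675 named genes and 8430 unnamed sequences were tested.

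A model with 1 mean per group over 15 samples (residual degrees of freedom 11, prior 2.65) was fitted in R 4.3.3 by limma 3.58.1, after a test on simulated data. P-values are two-sided and adjusted (Benjamini-Hochberg) across the 25105 features, with a threshold of 0.05. SE values are on the log2 scale. The members and gene lists were chosen with earlier results of these data known. Genes named in the text are the core subunits, the isoform families, the member with the smallest adjusted p and the one with the largest difference of each complex and comparison, calls against the main direction, members with disagreeing sequences and members kept through 1 group; others were named after their values were seen, among them Ndufaf1, Atp5j and the members whose brown samples did not overlap. Alternatives were the scaling, background, filter, choice of sequence, blocks and left-out samples. Normexp (offset 50) ran on the median signal, since no mean signal column was at hand. Promoters are from RefSeq (GRCm38.p6).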

Additional observations from a re-analysis of the deposited data

Results flagged for a closer look

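Among 138 groups of 4 samples looked at, over 46 named genes and complexes, 4 held a sample farther from the other 3 than Dixon's 95% limit allows; chance flags about 1 in 20 groups. Cox6a2 had a level of -2.09 in BAT control 4, where the other BAT controls lay between 1.86 and 2.66; this is the BAT control with the lowest muscle list. Uqcrc1 stood at 5.33 in WAT control 1, above the other WAT controls at 4.85 to 4.92. In BAT control 2, Cox7a1 stood at 8.55, below the others at 8.66 to 8.67, and Ndufs6 stood at 7.03, below the others at 7.17 to 7.19. Both of these gaps are small against the difference between the depots.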

How the results depend on the processing

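The direction of the median between depots held under every scaling, filter, block and left-out sample run. The large counts held in the runs with more than 1 sample in each group. In controls 83 to 87 members were called. In knockouts 86 to 87 were called on leaving out 1 sample at a time, and 83 higher and 1 lower under quantile normalization. Values below are medians of the members minus the median of all features. Quantile normalization gave 1.50 in controls (2.04 as reported) and 1.98 in knockouts (2.70), turned Atp5g3 to -0.69 (adjusted p = 0.0117) and left Atp5b at 0.12 (adjusted p = 0.629) and Cox6a1 at 0.34 (adjusted p = 0.124) in controls; the cause was not tested. Normexp background gave -0.40 for the knockouts in BAT (0.0085 as reported) and 0.068 for the interaction (0.53). Scaling to the array median moved the median of all features from 0.24 to 0.11 in the WAT knockout comparison, from 0.10 to -0.04 in BAT, from 0.11 to 0.26 between depots in controls and from -0.09 to 0.06 in knockouts. Leaving out 1 sample at a time, the count of members called ran from 0 to 67 for the WAT knockouts, was 0 to 0 for the BAT knockouts, and ran from 0 to 48 for the interaction, 85 to 87 between depots in controls and 86 to 87 in knockouts; the medians ran from -1.02 to -0.22, from -0.042 to 0.031, from 0.23 to 0.99, from 2.01 to 2.13 and from 2.35 to 3.08. The extremes of 67 and 48 are those without WAT knockout 4. An alternative without the lymphocyte-rich WAT knockouts 1, 2 and 3 was added after the data were seen. Its medians were 0.27 for the WAT knockouts, -0.25 for the interaction and 1.76 between depots in knockouts. WAT knockout 4 was then the only WAT knockout sample. The correlation of the deviations of same-numbered samples ran from -0.47 to 0.18. These correlations cannot tell whether such samples share an animal. With every array as its own sample and no block, 86 members were called between depots in controls, 87 in knockouts and 0 in the knockout comparisons and the interaction; adding the replicate block gave 85, 87 and 0, and adding the slide as a block gave 86, 87 and 0. Signal over background limits Cox8c, Cox4i2 and Cox7b2.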
